A study of Mus musculus with 24 samples.

Results

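The comparison described here is that of genotype in osteoclast cultures after 5 days with RANKL. Its members were the 6 libraries labelled day 5 with M-CSF and RANKL, of 24 in the series. Of these, 3 came from control bone marrow macrophages with a Runx1 transgene in Rosa26 (Rosa26-Runx1tg/+). The other 3 carried the same transgene with LysM-Cre (LysM-Cre;Rosa26-Runx1tg/+), a Cre recombinase placed in the lysozyme gene Lyz2 and active in cells of the myeloid lineage, and the labels call them Runx1 overexpression. The controls thus held the silent transgene as well. Cells of both genotypes were seeded at 15000 per well and kept in M-CSF at 30 ng/mL and RANKL at 50 ng/mL, and 250 ng of RNA entered each library. The libraries of a genotype are numbered 1 to 3. The age and sex of the mice are not stated in the labels, nor what a number stands for, so p-values measure only the spread between libraries of a group, which may be technical. That spread was estimated over all 24 libraries, those of the other conditions included, as if all were independent.

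Osteoclasts are the multinucleated cells that resorb bone. They form when macrophages, kept alive by M-CSF, receive RANKL through the receptor RANK (Tnfrsf11a), switch on the transcription factor Nfatc1, fuse through proteins such as Dcstamp, and then make the protease Ctsk, the phosphatase Acp5 and a proton pump. Runx1 is a DNA-binding factor of blood cell formation that works with its partner Cbfb and recruits corepressors of the Tle family.

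Runx1 values of the labelled genotypes overlapped. Scaled to a library of 1e6 counts (CPM), Runx1 stood at 71.5, 66.7 and 67.5 in the control libraries and at 86.3, 92.0 and 63.4 in the libraries labelled LysM-Cre. Libraries 1 and 2 labelled LysM-Cre lay above every control and library 3 lay below every control. The log2 difference was 0.23 (SE 0.14, 95% interval -0.05 to 0.51), and without the libraries of number 3 it was 0.37 (SE 0.13, interval 0.10 to 0.65, adjusted p = 0.387 in edgeR). Lyz2, the gene that carries the Cre, gave 4840.4, 4546 and 5240.4 CPM in controls and 2781, 3491 and 5196 CPM in the libraries labelled LysM-Cre. Again the first pair lay below the control range while library 3 lay inside it. The log2 difference of Lyz2 was -0.35 with all libraries and -0.64 without number 3. The sources used here do not say whether reads of the transgene were counted under Runx1.

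Library 3 labelled LysM-Cre stood apart from the other 5 in further ways. Its total was 36.5 in units of 1e6 counts, against 19.0 to 22.3 in the others, and mitochondrial genes took between 3.22% and 3.70% of the counts in all 6. It gave 847 counts from Y-linked genes and 7 from Xist, whereas the other 5 gave 0 from Y-linked genes and 17737 to 24105 from Xist. The LysM-Cre libraries of number 3 in the other conditions showed the same Y-linked signal, with 542 to 622 counts. Their totals were 21.8 to 23.3 in units of 1e6 counts, so the high total was particular to the library of this comparison. Across the genes whose average log2 CPM was 1 or more, its root mean square log2 distance from the controls was 0.275 to 0.288, and from libraries 1 and 2 of its own label it was 0.400 and 0.424. Libraries 1 and 2 lay 0.283 from each other. Sex and library number cannot be told apart from whatever else sets this library off, and the part of depth was not tested. Whether its label is right was not tested, and every value over 3 libraries labelled LysM-Cre, the count of calls included, rests on that label. Counts over gene lists and the genes the results turn on are therefore given with it and without it, and values without such a remark are from the fit of all libraries. The fit without it left out the LysM-Cre libraries of number 3 in all 4 conditions.

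**Figure D1:**
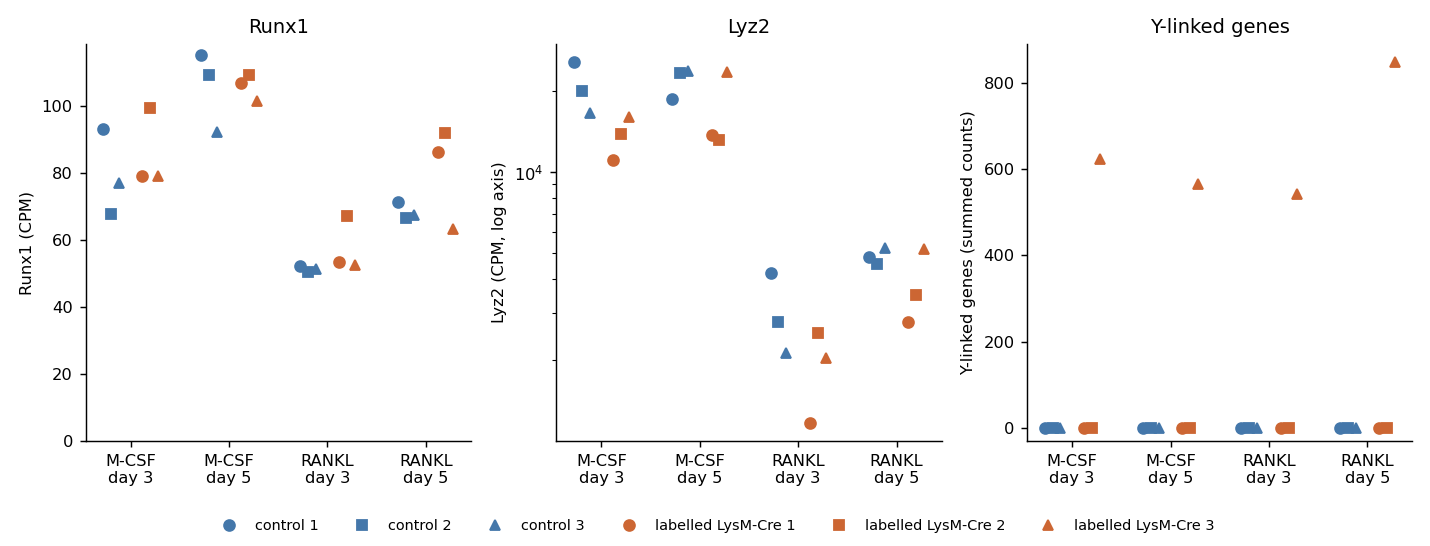
Runx1 in CPM, Lyz2 in CPM on a log axis and the summed counts of Y-linked genes in each of the 24 libraries, by medium and day. Each point is a library, blue for control and orange for labelled LysM-Cre, with the shape giving its number. With RANKL at day 5 library 3 labelled LysM-Cre sits with the controls for Lyz2 and below them for Runx1, and Y-linked counts above 1 occur only in the LysM-Cre libraries of number 3.

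With all libraries in the fit, no gene of 15035 tested passed an adjusted p of 0.05 in edgeR's quasi-likelihood test (0%). At an unadjusted p under 0.05 there were 457 genes (3.04%), of which 296 were higher (1.97%) and 161 lower (1.07%) in the libraries labelled LysM-Cre. Without number 3 there were 570 higher (3.72%) and 582 lower (3.79%) of 15339 at that p. limma-voom also called 0 genes, and DESeq2 called 6, all higher: Slco2b1, Ngp, Axl, Vcam1, Cd244a and F7, each at an adjusted p of 0.0482. These names come from the calls themselves and were chosen after their values were seen. The intervals show how much change the comparison could hold. The median gene had an absolute log2 difference of 0.10 with an SE of 0.19. For 10609 genes (70.6%) the 95% interval lay within a 2-fold change in either direction. Without number 3 it did so for 10134 of 15339 genes. With all libraries this share was 92.6% among the 11031 genes whose average log2 CPM was 1 or more. The smallest adjusted p in edgeR was 0.922.

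The gene with the smallest p was Ngp, which encodes neutrophilic granule protein, a product of maturing neutrophils. Ngp stood at 20.7, 25.5 and 29.4 CPM in the controls and at 45.0, 38.7 and 42.7 CPM in the libraries labelled LysM-Cre. All 3 libraries labelled LysM-Cre, number 3 included, lay above all 3 controls. The means were 25.2 ± 4.34 and 42.2 ± 3.20 CPM (SD, n = 3 each). The log2 difference was 0.74 (SE 0.16, 95% interval 0.40 to 1.08), which did not pass in edgeR (adjusted p = 0.922). Without number 3 it was 0.73 with an adjusted p of 0.172 in the same test. In bulk RNA, more cells of a type and more RNA per cell cannot be told apart.

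Higher values were more frequent than lower ones among genes of neutrophil granules. Of 21 tested members of this list, 8 were higher at an unadjusted p under 0.05 and 0 were lower, against 1.97% and 1.07% of all genes. The median log2 difference over the list was 0.53, against 0.00 (-0.0016) over all genes, and 18 members were positive, as were 49.4% of all genes. Without number 3, 4 were higher at that p (3.72% of all genes), 0 were lower, the median was 0.44 and none passed the adjusted threshold. The 3 and 3 values did not overlap in 6 members: Ngp, S100a9, S100a8, Lcn2 and Mpo were higher, and Retnlg, at or under 0.612 CPM in every library, was lower. Over all genes 5.38% were separated in this way with higher values and 4.95% with lower ones. S100a9, a calcium-binding alarmin subunit, stood at 20.8, 22.6 and 25.1 CPM in controls and at 32.1, 32.2 and 36.6 CPM in the libraries labelled LysM-Cre. Its partner S100a8 stood at 11.5, 12.2 and 13.9 CPM against 18.1, 16.0 and 19.0 CPM. Lcn2, an iron-siderophore binder of neutrophil granules, stood at 6.43, 8.23 and 9.30 CPM against 11.6, 10.1 and 12.8 CPM. In none of these 3 genes did the groups overlap, and library 3 was the highest each time. The log2 differences were 0.56 for S100a9 (95% interval 0.16 to 0.95), 0.50 for S100a8 (0.13 to 0.86) and 0.53 for Lcn2 (0.13 to 0.93), and without number 3 they were 0.49, 0.44 and 0.44. Ltf (0.42) and Camp (0.70), which encode antimicrobial granule proteins, were also positive, although their groups overlapped. Mpo, the myeloperoxidase of primary granules, was at or under 1.71 CPM in every library. Summed over the list, neutrophil granule genes made up 103, 108 and 132 CPM in the controls and 162, 142 and 178 CPM in the libraries labelled LysM-Cre. The part of other cells in this sum was not tested.

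**Figure D2:**
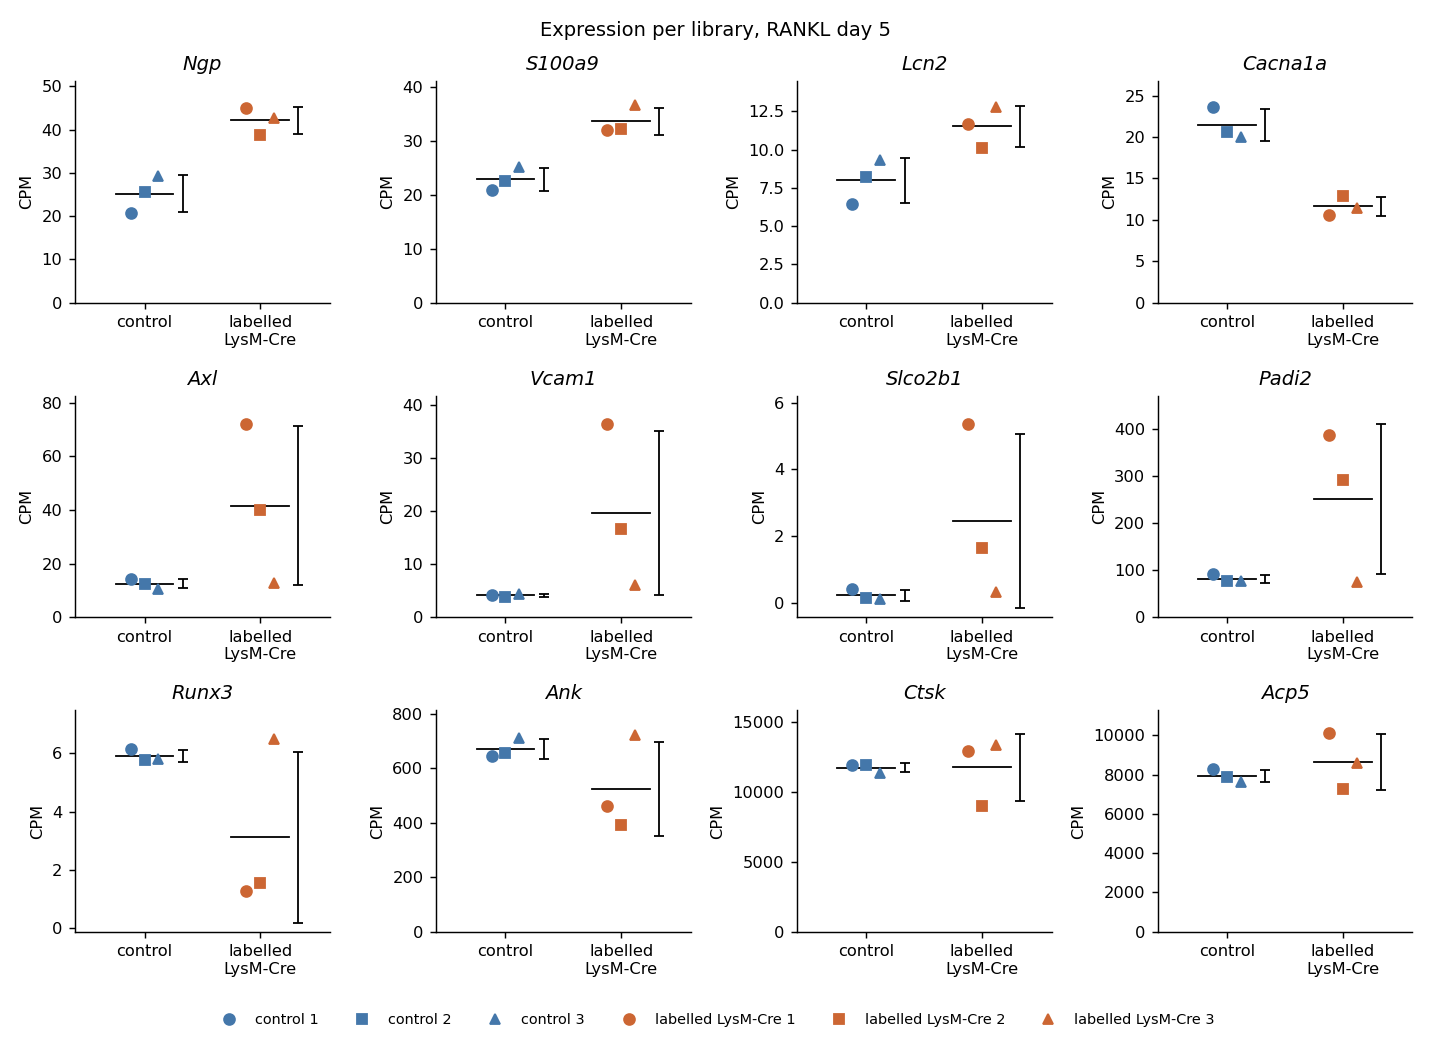
CPM of 12 genes in each library with RANKL at day 5. Points are libraries, with the shape giving the number, horizontal lines are means and bars are 1 SD (n = 3). Ngp, S100a9, Lcn2 and Cacna1a separate the 3 libraries of each label, whereas for Axl, Slco2b1, Padi2, Runx3 and Ank library 3 labelled LysM-Cre lies at or near the controls.

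Of all genes tested, 809 (5.38%) had all 3 values of the libraries labelled LysM-Cre above all 3 controls and 744 (4.95%) had all below, 10.3% together. Next to Ngp among the separated genes of smallest p was F7, the clotting factor VII, at 1.63, 1.27 and 2.54 CPM in controls and 7.52, 4.15 and 5.46 CPM in the libraries labelled LysM-Cre. Its log2 difference was 1.65 (95% interval 0.87 to 2.43). Ptgfrn, a membrane partner of tetraspanins, gave 15.6, 21.4 and 20.1 CPM against 47.2, 32.0 and 27.3 CPM (log2 difference 0.90, interval 0.46 to 1.33). In both genes library 3 was above every control. Without number 3 the differences were 1.68 for F7 (adjusted p = 0.14 in edgeR) and 1.05 for Ptgfrn, which then passed (adjusted p = 0.0393 in edgeR). Nectin1, an adhesion molecule, gave 27.3, 27.8 and 27.9 CPM against 38.2, 47.0 and 39.7 CPM (log2 difference 0.59, interval 0.27 to 0.91). Cd36, the scavenger receptor for oxidised lipids, gave 402, 415 and 453 CPM against 627, 564 and 524 CPM (0.43, interval 0.18 to 0.69). Without number 3 these were 0.62 and 0.49. The other separated genes named by the same rule with higher values were Rubcnl, Pla2g16, Ica1, Npl, Foxred2, Vcam1 and Cd4, with log2 differences from 0.67 (Foxred2) to 2.87 (Cd4). Of these, Vcam1 and Cd4 passed without number 3. Rubcnl, Pla2g16, Ica1 and Npl were at 3.21 CPM or less in every library.

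Among separated genes with lower values, Cacna1a had the smallest p. It encodes the pore subunit of a voltage-gated calcium channel. Cacna1a stood at 23.7, 20.7 and 20.0 CPM in the controls and at 10.5, 12.9 and 11.5 CPM in the libraries labelled LysM-Cre. Its log2 difference was -0.88 with all libraries (SE 0.21, 95% interval -1.32 to -0.45) and -0.88 without number 3. Notch4, a receptor of the Notch family, gave 13.3, 10.1 and 8.62 CPM against 3.39, 5.66 and 7.26 CPM (log2 difference -0.97, interval -1.65 to -0.28). Nbeal2, a protein of granule formation, gave 104, 92.9 and 104 CPM against 67.7, 71.8 and 86.9 CPM (-0.41, interval -0.66 to -0.16). For Notch4 and Nbeal2 library 3 was the closest of its label to the controls, while for Cacna1a it lay between the other two. The remaining genes of this rule were Mpv17l, Dpy19l3, Eno3, Osbpl3, Lama3, Arvcf, Rhobtb1, Ttll3 and Grap, between -1.09 (Dpy19l3) and -0.27 (Osbpl3). With all libraries none of these genes passed the adjusted threshold in edgeR. Without number 3 Notch4 was at -1.25, Nbeal2 at -0.53 and Grap at -1.36, of which Grap passed (adjusted p = 0.0095 in edgeR).

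Axl showed a different arrangement. It is a receptor tyrosine kinase of the TAM family, whose members bind Gas6 or Pros1 and take part in the uptake of dying cells. Axl stood at 14.1, 12.6 and 10.7 CPM in the controls and at 72.1, 40.1 and 12.7 CPM in the libraries labelled LysM-Cre. Libraries 1 and 2 were far above the controls, and library 3 lay within their range. With all libraries the log2 difference was 1.74 (SE 0.43, 95% interval 0.84 to 2.63, adjusted p = 0.996 in edgeR). Without number 3 Axl rose by 2.17 (SE 0.26, interval 1.62 to 2.71, adjusted p = 6.5e-04 in edgeR).

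Of the 17 tested genes for TAM receptors and dying-cell uptake, 4 were higher at an unadjusted p under 0.05 (1.97% of all genes) and 0 were lower. Without number 3, 6 were higher (3.72% of all genes) and 1 was lower (3.79%). Mfge8, a bridge to phosphatidylserine on dying cells, gave 126, 148 and 158 CPM in controls against 295, 197 and 188 CPM (log2 difference 0.65, interval 0.07 to 1.24), and Pros1 had a log2 difference of 0.39 (0.05 to 0.73). Without number 3 these were 0.77 and 0.47. All 3 libraries labelled LysM-Cre exceeded the controls in both. The receptor Mertk and the ligand Gas6 gave log2 differences of 0.07 (interval -0.64 to 0.78) and 0.04 (-0.51 to 0.58).

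Without number 3, 39 of 15339 genes passed in edgeR (0.254%), 24 higher (0.156%) and 15 lower (0.0978%), and 1152 (7.51%) were under an unadjusted p of 0.05. The genes named from here to the end of the next paragraph come from these calls, which were looked at after the position of number 3 was known. Padi2, which converts arginine to citrulline in proteins, and Wdfy1 shared the smallest adjusted p. Padi2 stood at 91.4, 76.5 and 76.3 CPM in controls and at 387, 293 and 74.7 CPM in the libraries labelled LysM-Cre, so that without number 3 it rose by 2.06 (SE 0.15, adjusted p = 1.1e-06 in edgeR). Wdfy1 rose by 1.68, from 27.3, 32.3 and 27.9 CPM to 106 and 80.5 CPM, with 30.5 CPM in library 3. Vcam1, an adhesion molecule for integrins, rose by 2.69, from 4.19, 3.76 and 4.36 CPM to 36.4 and 16.6 CPM, with 6.0 CPM in library 3. Macrophage and monocyte genes among the 24 were the organic anion transporter Slco2b1, the haemoglobin scavenger receptor Cd163 and the fractalkine receptor Cx3cr1. Slco2b1 stood at 0.419, 0.141 and 0.136 CPM in controls and 5.37, 1.66 and 0.343 CPM in the libraries labelled LysM-Cre, a rise of 3.91 without number 3 (SE 0.51). Cd163 rose by 2.19 and Cx3cr1 by 1.90 in that fit. Surface receptors of lymphoid and myeloid cells were also present, with rises of 3.37 for Cd4 and 3.67 for Cd244a. Lyz1 rose by 3.05, but it is a near-identical copy of Lyz2, and how its reads were told apart from those of Lyz2 was not tested.

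The 15 lower genes included Ank, a transporter that moves pyrophosphate out of cells. Ank stood at 643, 655 and 711 CPM in the controls and at 462, 391 and 720 CPM in the libraries labelled LysM-Cre, and without number 3 it fell by 0.66 (SE 0.09, adjusted p = 0.0027 in edgeR). Prkag2, a regulatory subunit of AMP-activated kinase, gave 98.1, 99.0 and 99.1 CPM against 62.1, 55.6 and 110 CPM and fell by 0.75. Sel1l3 fell by 1.36, Cpe, a carboxypeptidase that processes peptide hormones, by 0.84, and Prnp, the prion protein gene, by 0.81. In all of these but Sel1l3, library 3 lay above every control.

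Library 3 had no part in choosing these 39 genes. Its median log2 distance from the control mean, on CPM plus 0.5, was 0.04 over the 24 higher genes and -0.02 over the 15 lower ones. It was above all controls in 7 of the 24 and below all of them in 6. For the 15 it was below all controls in 5 and above in 6. The libraries of the same number in other conditions were alike: over the 24 higher genes the LysM-Cre library of number 3 had a median of -0.11 in M-CSF alone at day 5 and -0.16 with RANKL at day 3. In those conditions libraries 1 and 2 had medians of 0.62 and 0.54, and of 1.09 and 0.83.

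**Figure D3:**
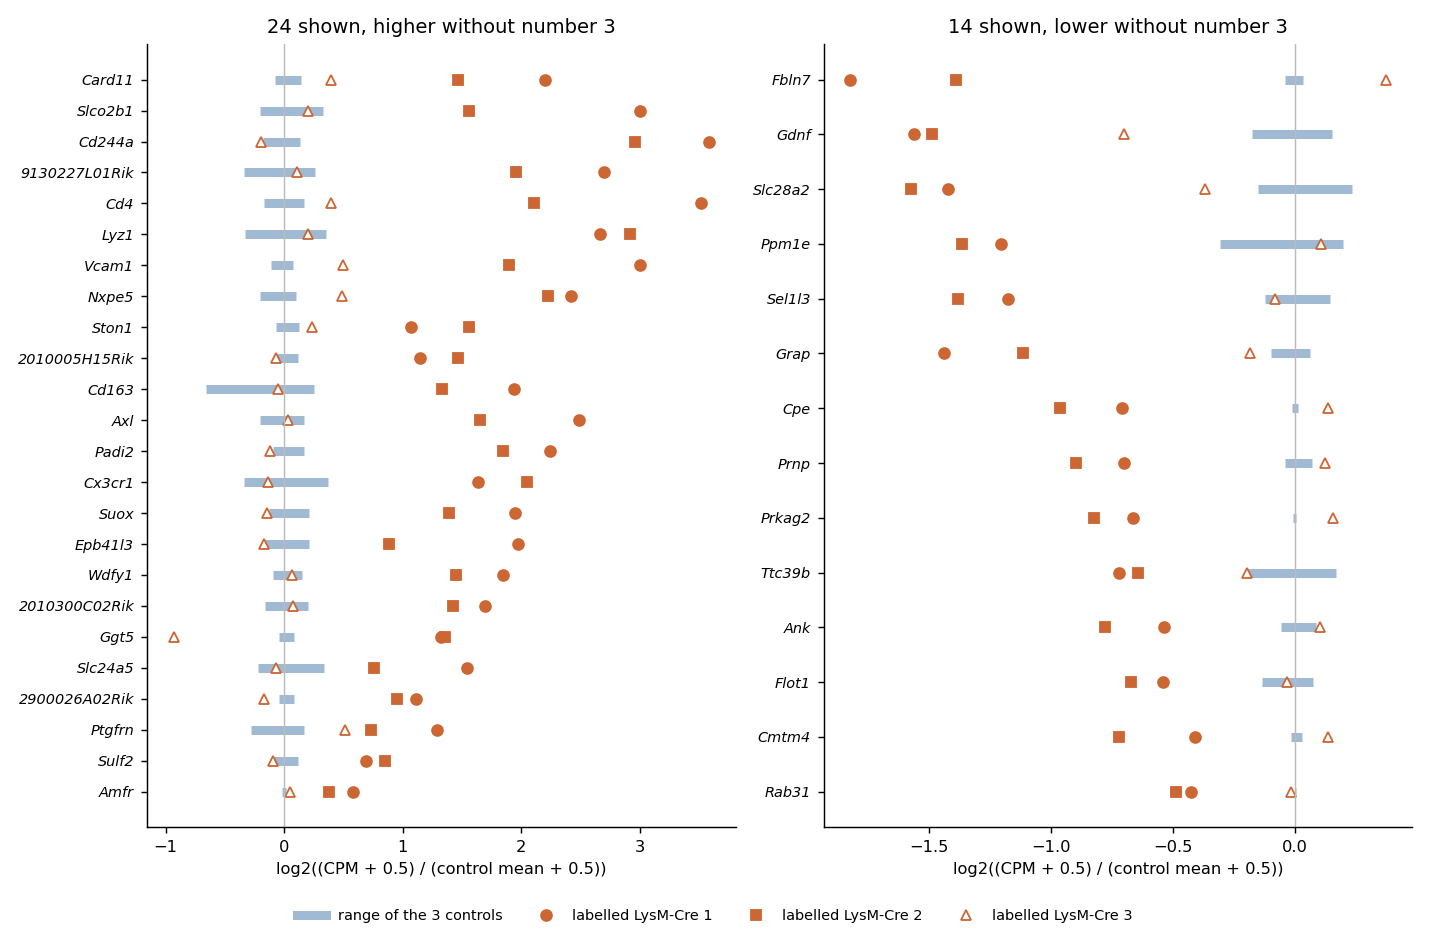
Of the 39 genes that passed in edgeR without number 3, 38 are shown, each as the log2 ratio of CPM plus 0.5 to the control mean plus 0.5. Blue bars span the 3 controls, filled symbols are libraries 1 and 2 labelled LysM-Cre that entered the test, and open triangles are library 3, which did not. The open triangles lie above the controls for 7 of the 24 higher genes and below them for 5 of the 14 lower genes shown.

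Markers of stromal cells and osteoblasts moved with libraries 1 and 2 labelled LysM-Cre, and in their sum number 3 was the lowest of each label. Of 14 such genes, 7 passed the filter on low counts, all 7 had positive differences with all libraries and 6 without number 3, and their median was 1.51 with all libraries and 2.03 without number 3. At an unadjusted p under 0.05 there were 2 higher members with all libraries (1.97% of all genes) and 5 without number 3 (3.72%). Col1a1, a chain of type I collagen, stood at 32.1, 38.3 and 12.9 CPM in controls and at 156, 106 and 10.9 CPM in the libraries labelled LysM-Cre. Summed over the list, the controls gave 87.6, 114 and 39.4 CPM and the libraries labelled LysM-Cre 418, 287 and 32.4 CPM. Thus the controls and libraries labelled LysM-Cre overlapped through library 3. Col1a2, a further collagen gene, was also lowest in number 3 of both labels in M-CSF alone at day 5. It stood there at 47.8, 39.1 and 5.88 CPM in controls against 62.8, 60.0 and 6.24 CPM. The part of library number in these differences was not tested. The osteoblast markers Ibsp and Bglap2 had 0 counts in all 6. Fibronectin (Fn1), at 41.5, 52.9 and 18.8 CPM against 203, 134 and 18.8 CPM, followed the same order. Axl and Vcam1 are made by stromal cells too, and the part of such cells in their differences was not tested.

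Macrophage genes leaned to higher values. Of 22 tested, 4 were higher at an unadjusted p under 0.05 (Slco2b1, Cd36, Cd163 and C1qa), against 1.97% of all genes, 0 were lower, and 19 were positive, against 49.4% of all genes, with a median of 0.26. Without number 3, 6 were higher (3.72% of all genes), 0 were lower and the median was 0.18. C1qa, a subunit of complement C1q, gave 83.0, 85.9 and 83.8 CPM in controls and 177, 191 and 80.9 CPM in the libraries labelled LysM-Cre, so libraries 1 and 2 lay above the controls and library 3 below them. The defining macrophage genes Csf1r, the M-CSF receptor, and Adgre1 (F4/80) had log2 differences of 0.11 (interval -0.29 to 0.52) and 0.04 (-0.50 to 0.58). Among 12 monocyte genes 3 were higher at that p, namely Chil3 (0.61), Cx3cr1 (1.47) and Fn1 (1.65), against 1.97% of all genes. Without number 3 the same 3 were higher (3.72% of all genes), at 0.56, 1.90 and 2.16, and 1 member was lower (3.79%).

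Among Runx1, Runx2 and Runx3, the libraries of one label differed most in Runx3. Runx3, a relative of Runx1 with roles in lymphoid and myeloid cells, stood at 6.15, 5.79 and 5.81 CPM in controls and at 1.28, 1.56 and 6.49 CPM in the libraries labelled LysM-Cre. Libraries 1 and 2 were below all controls and library 3 above all of them. The log2 difference was -0.88 with all libraries (interval -2.72 to 0.97) and -2.06 without number 3 (interval -3.12 to -1.0, adjusted p = 0.128 in edgeR). Cbfb differed by 0.05 (interval -0.28 to 0.37) and Runx2 by 0.22 (-0.35 to 0.79). The corepressor Tle3 had a difference of 0.52 (0.05 to 0.99), with library 3 within the control range, and 0.73 without number 3. Of 18 tested genes on a list of genes bound or regulated by Runx1, 2 were higher at an unadjusted p under 0.05 (Cd4 and Mpo). Over all genes this share was 1.97%, and the median of the list was 0.22. Mpo was at or under 1.71 CPM in every library, and binding of Runx1 to any member was not tested. Without number 3, 4 of the 17 then tested were higher at that p (3.72% of all genes), of which Cd4 passed the adjusted threshold, and the median was 0.23.

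Runx proteins bind the word TGTGGT, and also TGCGGT. Both words were sought on either strand in the 250 bases before each RefSeq start (build GRCm38.p6). The 3 promoters below are shown because their genes differed most between libraries 1 and 2 and the controls in the Runx family (Runx3), among macrophage genes (Slco2b1) and as the monocyte gene that passed without number 3 (Cx3cr1), and because each holds a word, printed in capitals as read on the gene's strand. They lie at chr4:135120395-135120644 on the plus strand, chr7:99695810-99696059 on the minus strand and chr9:120068297-120068546 on the minus strand.
Runx3: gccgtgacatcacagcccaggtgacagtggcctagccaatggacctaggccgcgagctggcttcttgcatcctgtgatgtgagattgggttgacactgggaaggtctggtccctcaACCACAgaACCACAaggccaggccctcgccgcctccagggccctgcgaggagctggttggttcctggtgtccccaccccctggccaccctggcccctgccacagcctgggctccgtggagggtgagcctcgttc
Slco2b1: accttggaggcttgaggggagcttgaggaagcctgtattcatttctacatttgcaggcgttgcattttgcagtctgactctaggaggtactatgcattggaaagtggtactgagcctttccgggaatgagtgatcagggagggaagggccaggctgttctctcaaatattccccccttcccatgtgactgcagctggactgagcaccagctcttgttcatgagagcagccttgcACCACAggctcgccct
Cx3cr1: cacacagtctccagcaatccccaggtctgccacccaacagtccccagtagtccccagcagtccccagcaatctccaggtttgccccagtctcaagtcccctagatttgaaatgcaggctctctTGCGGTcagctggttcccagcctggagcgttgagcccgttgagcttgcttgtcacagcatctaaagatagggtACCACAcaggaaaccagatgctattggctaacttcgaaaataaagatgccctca
The words begin 134 and 126 bases before the start in Runx3, 16 bases before it in Slco2b1, and 127 and 54 bases before it in Cx3cr1. Runx3 and Slco2b1 have other starts in the table whose windows hold neither word. Among 10538 tested genes with a RefSeq promoter, 20.7% held a word. Of the 24 genes higher without number 3, 16 had a promoter and 4 held a word (25%), and of the 15 lower genes 10 had a promoter and 2 held a word (20%). Of the 12 higher and the 12 lower separated genes named above, 8 had a promoter in each set, and 0 (0%) and 3 (37.5%: Arvcf, Rhobtb1 and Ttll3) held a word. With 8 to 16 promoters a set, 1 gene moves a share by several percentage points. The windows of Ngp and Axl hold neither word.

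The resorption machinery of the osteoclast had small differences, and their size depended on number 3. Of 22 tested genes 0 passed and 0 had an unadjusted p under 0.05 in edgeR, DESeq2 and limma-voom called none of them, the median log2 difference was -0.05, and 21 intervals lay within 2-fold. Without number 3 the median was -0.21, 19 intervals lay within 2-fold, and at that p 1 gene was higher (Itgb3; 3.72% of all genes) and 2 were lower, the bicarbonate exchanger Slc4a2 (-0.35) and the sodium-proton antiporter Slc9b2 (-0.50; 3.79% of all genes). None of the 22 passed the adjusted threshold in that fit. Positive differences were found in 9 of the 22 with all libraries (49.4% of all genes) and in 7 without number 3. Ctsk, the main collagen-degrading protease, stood at 11923, 11941 and 11363 CPM in the controls and at 12938, 9020.4 and 13362 CPM in the libraries labelled LysM-Cre. Library 2 was the lowest of the 6 and the other 2 of its label were the highest. The 95% interval of its log2 difference ran from -0.39 to 0.40. For Acp5, the tartrate-resistant phosphatase, the difference was 0.13 (-0.29 to 0.54), and for the gelatinase Mmp9 it was 0.04 (-0.37 to 0.46). Calcr, the calcitonin receptor, gave 0.21 with a wider interval (-0.55 to 0.96). Itgb3, the beta chain of the integrin by which osteoclasts attach to bone, was the 1 separated member (5.38% of all genes were separated higher). It stood at 753, 745 and 735 CPM in controls against 1485, 980.3 and 807 CPM. Its log2 difference was 0.55 (-0.01 to 1.11), and without number 3 it was 0.72 (adjusted p = 0.173 in edgeR).

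The genes that drive osteoclast formation also had small differences. Of 24 regulators, 0 had an unadjusted p under 0.05, the median was -0.07 and 6 were positive, against 49.4% of all genes. The median without number 3 was -0.09 and 4 were positive, against 7367 of the 15339 genes tested in that fit. At that p 1 was lower (3.79% of all genes). Nfatc1, the master factor, gave -0.03 (interval -0.33 to 0.28), RANK (Tnfrsf11a) gave -0.09 (-0.53 to 0.35), and the early factor Fos gave -0.15 with an interval of -1.06 to 0.75. Of 12 fusion genes and 16 inhibitors of osteoclast formation, 0 were under that p, with medians of 0.02 each, and 7 and 8 were positive. Their medians without number 3 were -0.07 and 0.02, 5 and 9 were positive, and 1 fusion gene was lower (3.79% of all genes). The fusion receptor Dcstamp gave 0.14 (-0.31 to 0.58), and the inhibitor Irf8 gave 0.26 (-0.36 to 0.88). Of 22 genes for the V-ATPase proton pump and lysosome, 0 were under that p, the median was -0.03 and all 22 intervals lay within 2-fold. Positive differences were found in 9 of these with all libraries and in 7 without number 3. Without number 3 all 22 intervals again lay within 2-fold, but 5 genes, all of them subunits of the pump, were lower at that p (3.79% of all genes), and the median was -0.11, against -0.0085 over all genes. They were Atp6v1a (-0.37, interval -0.62 to -0.11), Atp6v1h (-0.34), Atp6v1b2 (-0.29), Atp6v1c1 (-0.26) and Atp6v0e (-0.25), and none passed the adjusted threshold.

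**Figure D4:**
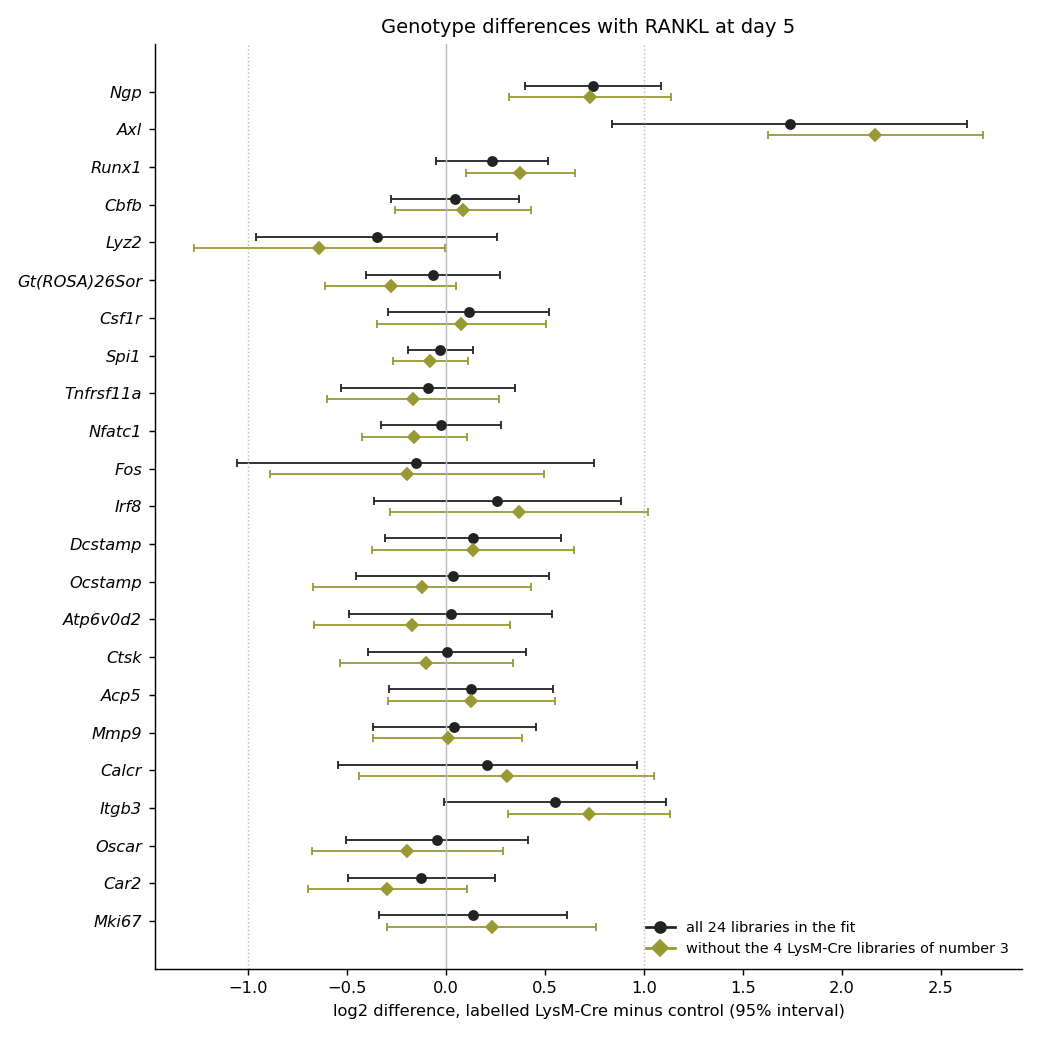
Log2 differences, labelled LysM-Cre minus control, with 95% intervals for 23 genes, from the fit of all 24 libraries (black circles) and without the LysM-Cre libraries of number 3 (olive diamonds). Dotted lines mark a 2-fold change. Axl lies above 1 in both fits, Ngp lies between 0 and 1, and the osteoclast genes, apart from Itgb3 without number 3, have intervals that include 0.

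Among the metabolic and state lists, glycolysis and hypoxia genes had a median of -0.11, and 3 of 27 were lower at an unadjusted p under 0.05 (1.07% of all genes), with 0 higher. In the fit without number 3 the median was -0.23 and 7 were lower (3.79% of all genes), with 0 higher and none past the adjusted threshold. Bnip3, a hypoxia-induced mitophagy receptor, stood at 38.2, 38.4 and 41.2 CPM in controls against 27.4, 30.9 and 34.5 CPM, a log2 difference of -0.34 (-0.60 to -0.09). Egln3, an oxygen-sensing hydroxylase, gave 3.03, 4.0 and 3.58 CPM against 1.01, 0.778 and 2.20 CPM, a log2 difference of -1.37 (-2.43 to -0.32). The groups did not overlap in either gene, and without number 3 the differences were -0.44 and -1.98. The 30 interferon-stimulated genes had a median of -0.31 (-0.21 without number 3), 4 were positive and 0 were under that p in either fit; their summed level was 660 CPM in control 3 and 325 to 475 CPM in the other 5 libraries. Cell cycle genes had a median of 0.08 over 30 genes, of which 27 were positive (49.4% of all genes), and of 0.14 without number 3. Their summed level was 4189, 3916 and 3910 CPM in controls and 3926, 5114 and 3804 CPM in the libraries labelled LysM-Cre. Only library 2 thus lay above the controls in this sum.

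**Figure D5:**
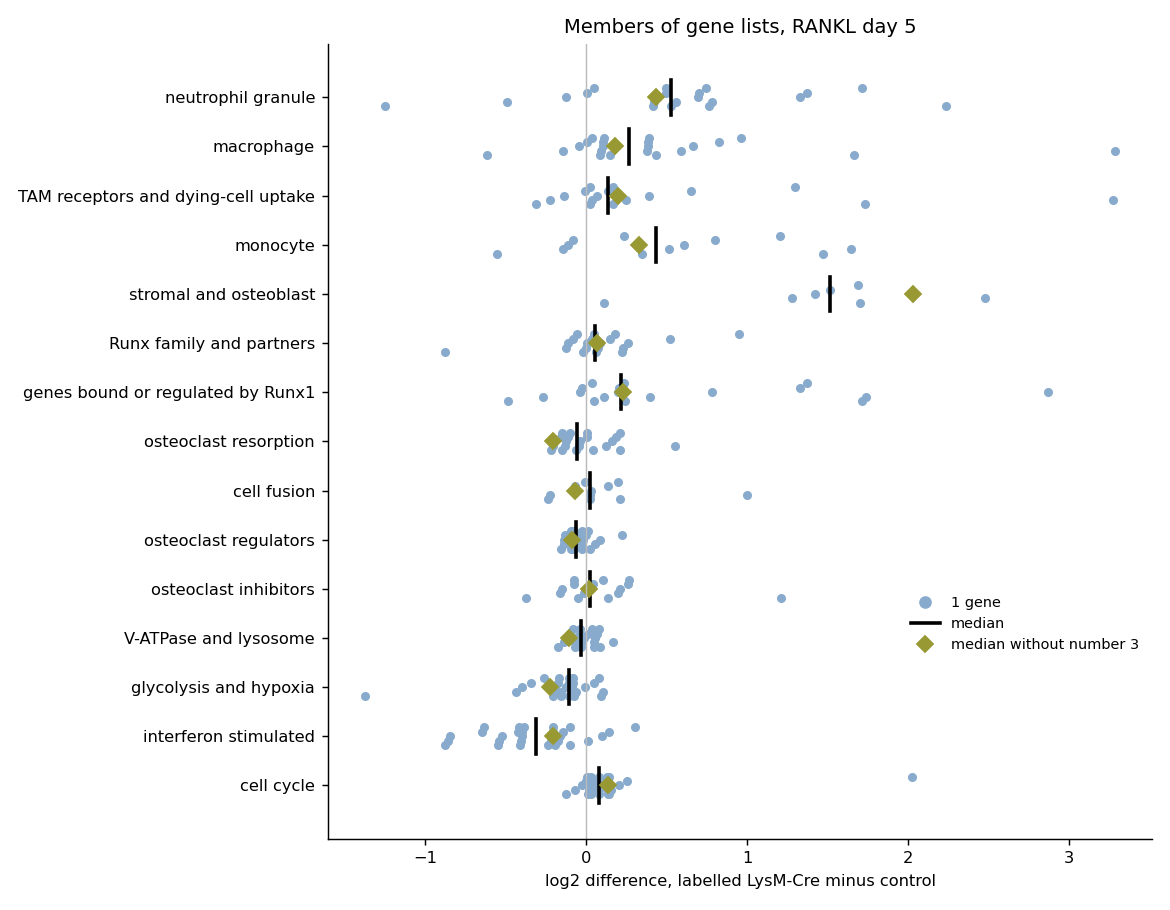
Log2 differences of the tested members of 15 gene lists with RANKL at day 5. Each point is a gene, the black line is the list's median with all libraries and the olive diamond the median without number 3. Neutrophil granule genes have a median of 0.53 and stromal genes 1.51, whereas osteoclast resorption, fusion and regulator genes have medians between -0.07 and 0.02 with all libraries and between -0.21 and -0.07 without number 3.

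The genotype difference with RANKL at day 5 was tested against that in M-CSF alone at day 5 and that with RANKL at day 3. These tests took the 24 libraries as independent, although Y-linked counts recur in LysM-Cre number 3 in all 4 conditions. A pairing of libraries by genotype and number was not part of them. Neither difference of differences gave a call with all libraries (0 of 15035 in edgeR each, 0%). At an unadjusted p under 0.05 there were 481 genes (3.2%) for the medium and 225 (1.5%) for the day, and DESeq2 called 0 genes for each. The log2 difference of Ngp was 0.74 with RANKL at day 5, 0.09 with RANKL at day 3 and 0.31 in M-CSF alone at day 5. The differences between these did not pass. For Axl the values in the same order were 1.74, 0.78 and 0.92, and for Cacna1a they were -0.88, -1.04 and -0.87. Without number 3, the medium gave 7 calls of 15339 genes (0.0456%) and the day gave 0, with 593 genes (3.87%) at an unadjusted p under 0.05. Among the 7, Slco2b1 had the largest difference, with the genotype effect higher under RANKL by 3.66 (SE 0.59, adjusted p = 0.0358 in edgeR). Its level in M-CSF alone was 142, 136 and 136 CPM in controls and 160, 169 and 118 CPM in the libraries labelled LysM-Cre. Igf2r, the mannose 6-phosphate receptor that sorts lysosomal enzymes, was lower in libraries 1 and 2 labelled LysM-Cre in both media. The fall was smaller under RANKL (difference of effects 1.21). Igf2r gave 1003, 989 and 866 CPM in controls against 677, 666 and 953 CPM with RANKL. In M-CSF alone it gave 405, 421 and 336 CPM against 102, 135 and 426 CPM. The difference of effects was negative for Ank (-0.77), Emb (-1.44) and Pira2 (-1.59). Emb was higher in libraries 1 and 2 in both media, with 393, 412 and 398 CPM against 491, 429 and 433 CPM under RANKL. In M-CSF alone Emb gave 77.8, 108 and 104 CPM against 321, 281 and 105 CPM. The other two were Ggta1 (0.93) and 2900026A02Rik (1.45).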

How the data were processed

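RNA-seq was made from bone marrow macrophage cultures in 24 libraries, 3 per group, of which 6 form this comparison. The authors deposited whole-number read counts for 54532 genes. Per the submitters' processing notes STAR and DESeq2 were used with GRCm39, and the labels record neither versions nor a strand setting. Of the gene identifiers 54409 were found in GENCODE M21 (GRCm38), 98.3% at the same position, so the deposited positions follow GRCm38. Counts were tested with edgeR 4.0.16 in R 4.3.3 (filterByExpr, TMM, robust quasi-likelihood, a mean per group, 24 libraries), with Benjamini-Hochberg adjustment over all 15035 tested genes and a threshold of 0.05. SE is the absolute log2 difference over the root of F, with 95% intervals from the t distribution. Both rest on the spread within all groups of the series. In a fit of the 6 libraries alone the SE was 0.071 instead of 0.26 for Gas6, and 0.13 instead of 0.14 for Runx1. CPM uses the TMM-scaled library size. A read was worth 0.0286 to 0.0519 CPM in the 6 libraries. The code was tested on simulated data. DESeq2 1.42.0 and limma 3.58.1 were alternatives, as were other filters, a block and libraries left out. Genes named were the 12 separated genes of smallest p in each direction whose average log2 CPM was 1 or more, a fixed panel, and members of gene lists; some items are not reported here. Members and lists were chosen with earlier results of these data known.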

Additional observations from a re-analysis of the deposited data

How the results depend on the processing

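The count of 0 calls held with DESeq2 size factors, with limma-voom, without a filter or with a stricter one, and in a fit of the 6 libraries alone. It also held in limma-voom with a correlation of 0.07 between libraries of the same genotype and number. DESeq2's Wald test gave 6. With 1 library left out at a time the count ran from 0 to 7, the 7 being without number 3 labelled LysM-Cre, and it was 39 when number 3 was left out in all 4 conditions and 485 in a fit of the 5 libraries that then remain, an alternative chosen after seeing the data. Runx1 passed only in that last fit, at 0.39 (adjusted p = 0.00828 in edgeR). The difference between media gave 7 calls without number 3 in all conditions and 0 when only its library of this comparison was left out. Across genes, the deviations of same-numbered libraries of the 2 genotypes had correlations of -0.06, 0.09 and 0.17. Libraries of unlike number gave -0.19 to 0.12. The summed stromal genes were nevertheless lowest in number 3 of both genotypes (39.4 and 32.4 CPM). A replicate block, which joined equal numbers across the 2 genotypes, gave 1 call with 24 libraries and 1 call, Col12a1, with 6. The call with 24 was the Y-linked gene Ddx3y, at 10.8 CPM in library 3 labelled LysM-Cre and 0 in the rest of the 6. Small differences turned sign, and the cause was not tested. Ctsk was -0.018 in limma-voom with and without a correlation between libraries, -0.0027 without a filter, -0.015 with the replicate block in 6 libraries, -0.10 without number 3 and -0.085 in the 5-library fit. With 1 library left out Ctsk ran from -0.083 to 0.16, Mmp9 from -0.063 to 0.17, Nfatc1 from -0.14 to 0.090, Adgre1 from -0.058 to 0.11, Cbfb from -0.025 to 0.10 and Gas6 from -0.0059 to 0.075. The 76 results for named genes were each compared with their values under the alternatives. Of these comparisons 1201 kept sign and side of the threshold, 74 came to pass it and 15 turned sign. The alternatives reuse the same libraries, so the comparisons are not independent. With 3 libraries per group, of which 1 stands apart, the intervals rather than the calls carry the information on sizes.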
